A study of Mus musculus with 13 samples.

Results

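Coenzyme A carries acetyl and other acyl groups through the cell, and Acly, the enzyme deleted in this study, uses it to make acetyl-CoA in the cytosol. The genes described here are those for the steps that build coenzyme A from pantothenate (vitamin B5), Pank1, Pank2, Pank3, Pank4, Ppcs, Ppcdc and Coasy, together with Vnn3, a vanin. They are 8 of the 24445 gene symbols in the count table. They were picked by symbol, and where a symbol had several RefSeq transcript rows the row with the highest total count stood for the gene. That total is the only measured value the choice of rows used, and all 8 genes passed the filter on low counts. The genes themselves were chosen with earlier results of these data known, so counts of changed members do not come from a blind set.

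In the known pathway, pantothenate kinases phosphorylate pantothenate in the step that limits the rate, Ppcs adds cysteine, Ppcdc removes its carboxyl group, and the bifunctional enzyme Coasy carries out the last steps to coenzyme A. Pank1, Pank2 and Pank3 are active kinases, of which Pank2 is mitochondrial in its human form, whereas the kinase domain of Pank4 lacks catalytic residues and the protein carries a phosphatase domain. Vanins are pantetheinases that sit at the cell surface or are secreted and split pantetheine, a breakdown product of coenzyme A, into pantothenate and cysteamine.

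RNA was sequenced from bone marrow-derived macrophages (BMDMs), cells grown from mouse bone marrow with L929-conditioned medium, after 3 h or 24 h with 100 ng/mL LPS, a bacterial cell wall component that activates macrophages. Control cells carried floxed Acly (Acly fl/fl) without Cre, and Acly-deficient cells (Acly M-KO) carried the same floxed alleles with Lyz2-Cre, which is expressed in myeloid cells from the Lyz2 locus. All mice were female and on a C57Bl/6J background. There were 3 libraries per group, and 4 for control cells at 24 h. The labels do not say that replicates came from separate mice, so the p-values measure the spread between these samples. Unstimulated cells were not analysed here, so no value below compares LPS with its absence.

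The libraries held 21274102 to 59577343 counts, except control 24 h replicate 1 with 34467, which is 0.162% of the next lowest. In that library the members had 0 to 5 counts each, and it was left out of the values and the fit below, which rest on 12 libraries. Acly was at 105, 107 and 106 CPM (counts scaled to the size of the library) in control cells at 3 h against 37.7, 46.2 and 41.5 in Acly M-KO cells, and at 113, 109 and 107 against 30.1, 30.5 and 29 at 24 h. It was lower in every Acly M-KO library than in any control library (log2 fold change -1.34 at 3 h, adjusted p = 6.4e-16, and -1.88 at 24 h, adjusted p = 4.81e-20). All 7 macrophage markers examined (Adgre1, Csf1r, Cd68, Itgam, Fcgr1, Mertk and Lyz2) were at 1 CPM or more in each of the 12 libraries. The summed level of 8 neutrophil markers was 11.8 to 15.3 CPM at 3 h and 3.44 to 4.7 CPM at 24 h, with the 2 genotypes overlapping at both times, and Ly6g was at 0 throughout. Markers of dendritic cells summed to at most 2.69 CPM, of fibroblasts to at most 1.43 CPM, and of B and T cells and of mast cells to at most 0.306 and 0.288 CPM. In such bulk samples fewer cells of a type and less RNA per cell cannot be told apart.

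Vnn3 was the member that moved most, and the window upstream of its start is shown first. Ppcs, which with all 12 libraries and edgeR's TMM scaling passed the thresholds in no comparison, is shown beside it because the motif letters found in the 2 windows differ. Each window covers the 250 bases before the RefSeq transcription start (GRCm38.p6), on the strand of the gene, with motif matches in capitals. The Vnn3 window is chr10:23851212-23851461 on the plus strand and the Ppcs window is chr4:119422421-119422670 on the minus strand.
Vnn3: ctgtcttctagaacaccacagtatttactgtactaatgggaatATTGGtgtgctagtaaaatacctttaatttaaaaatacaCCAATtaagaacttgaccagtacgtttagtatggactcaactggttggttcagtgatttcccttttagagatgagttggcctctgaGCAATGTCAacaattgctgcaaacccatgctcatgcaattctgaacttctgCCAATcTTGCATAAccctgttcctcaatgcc
Ppcs: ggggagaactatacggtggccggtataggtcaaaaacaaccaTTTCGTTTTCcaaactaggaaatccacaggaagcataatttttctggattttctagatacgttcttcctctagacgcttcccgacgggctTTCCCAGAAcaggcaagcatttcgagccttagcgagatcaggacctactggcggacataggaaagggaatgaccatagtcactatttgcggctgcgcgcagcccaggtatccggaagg

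The Vnn3 window had 3 matches to the CCAAT box (CCAAT), with first bases at -207, -168 and -31 from the start, a C/EBP match (TTGCNNAA) at -25, and a match on the other strand to the core of the antioxidant response element (TGACNNNGC) at -82. The Ppcs window had an interferon stimulated response element core (GAAA, 2 bases of any kind, GAAA) on the other strand at -208 and an interferon gamma activated site (TTCNNNGAA) at -118. Both strands were searched, and none of these matches overlapped another. Of all 32851 windows of this length, 33.8% held a CCAAT box, 9.6% the C/EBP letters, 10.2% the antioxidant response core, 3.0% the interferon stimulated core and 7.0% the interferon gamma activated site. The TATA box (TATAAA), GC box (GGGCGG), AP-1 (TGANTCA), the MYC and MLX type E-box (CACGTG) and the hypoxia response core (ACGTG), whose letters lie inside that E-box, had no match in either window. The Vnn3 window was 39.2% G or C with 1 CpG, the Ppcs window 49.6% with 14, and the median over all windows was 52.4% with 6. CCAAT matches were also found in windows of Pank1, Pank2, Pank3, Pank4 and Ppcdc, and the antioxidant response core in a Pank2 window, so neither is particular to Vnn3. By the same fit Pank2 and Pank4 also passed the thresholds in no comparison. The 2 windows printed therefore do not stand for changed and unchanged genes. The matches describe the letters only, and no factor was measured at them.

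The 3 active kinase genes each hold a microRNA gene on their own strand: Mir107 in Pank1, Mir103-2 in Pank2 and Mir103-1 in Pank3. They are shown because the 2 mature 3p products, here with the seed (bases 2 to 8) in capitals as listed in RefSeq, share their seed.
mmu-miR-107-3p: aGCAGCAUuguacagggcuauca
mmu-miR-103-3p: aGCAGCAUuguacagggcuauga
The table has a row for each of these microRNA genes, and each row had 0 counts in all 13 libraries. The libraries were made from polyadenylated RNA, so the rows do not measure mature microRNAs.

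Levels can be compared between members per length, as CPM per kb of transcript. In control cells at 3 h Pank3 was highest at 15.4 CPM per kb, followed by Pank2 (4.86), Coasy (2.1), Pank4 (1.79), Ppcs (0.721), Vnn3 (0.687), Ppcdc (0.537) and Pank1 (0.132). The libraries of Coasy and Pank4, of Ppcs and Vnn3, and of Vnn3 and Ppcdc overlapped, so that these neighbours did not differ beyond their spread. In Acly M-KO cells at 3 h the order was the same down to Ppcs, after which came Ppcdc (0.532), Pank1 (0.228) and Vnn3 (0.214), and Ppcs and Ppcdc, and Pank1 and Vnn3, overlapped.

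By 24 h in control cells the order was Pank3 (9.25 CPM per kb), Coasy (6.45), Pank2 (4.18), Vnn3 (3.38), Pank4 (2.61), Ppcdc (2.08), Ppcs (1.05) and Pank1 (0.298), with no overlap between neighbours. Coasy had thus moved above Pank2, and Vnn3 from near the bottom to the middle of the order. Acly M-KO cells at 24 h had the same order, with Pank3 at 7.37, Coasy at 5.7 and Vnn3 at 4.1 CPM per kb, and there Pank2 and Vnn3, and Pank4 and Ppcdc, overlapped. Pank1 stayed below 0.3 CPM per kb in all 4 group means, and Pank3 was highest in all 4.

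**Figure D1:**
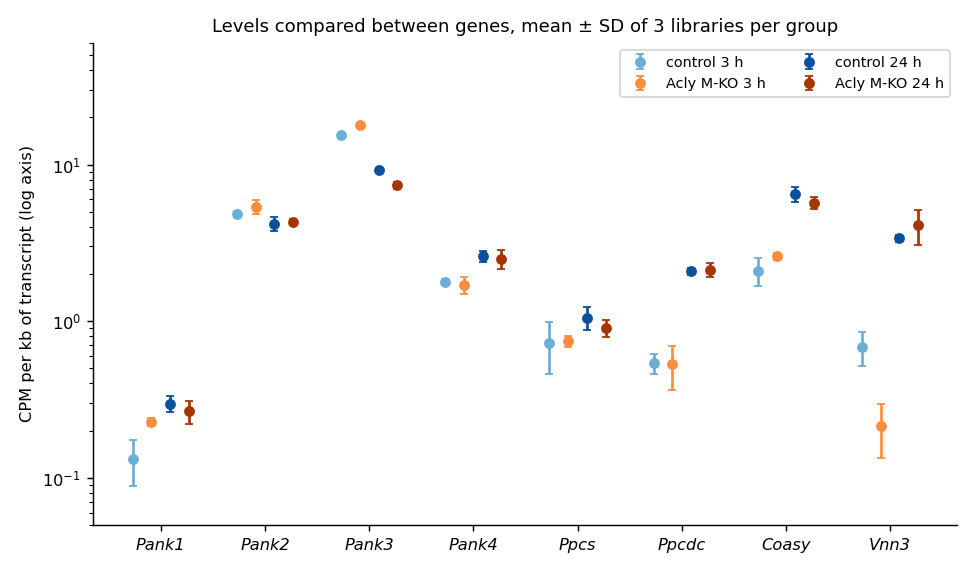
Level of the 8 genes in CPM per kb of transcript (vertical log axis) in the 4 groups, as points for the mean and bars for the SD of 3 libraries. Pank3 lies highest in every group, from 17.8 down to 7.37, and Vnn3 spans the widest range, from 0.214 in Acly M-KO cells at 3 h to 4.1 at 24 h.

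The first question was whether these genes differed between Acly M-KO and control cells at each LPS duration. Only Acly M-KO cells carried Cre. Their mean Lyz2 level was 2670 CPM against 5240 in control cells at 3 h, and 920 against 2440 at 24 h. Loss of Acly and the presence of Cre in the Lyz2 locus therefore cannot be told apart here. A gene was called changed when edgeR's quasi-likelihood test gave an adjusted p, over all transcripts, below 0.05 and the log2 fold change exceeded 0.75 in size. After 3 h, 2 of the 8 members had changed, where 2.01% of the 11904 genes tested had: Vnn3 was lower in Acly M-KO cells, as were 0.596% of genes, and Pank1 higher, as were 1.41%. At an adjusted p under 0.05 alone 3 members passed, the third being Pank3, against 15.4% of all genes, and the same 3 members had libraries that did not overlap between genotypes, against 30.1%. The median log2 fold change was 0.0968 over the members and -0.00511 over all genes.

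After 24 h, 0 of the 8 members had changed, where 1.38% of genes had. DESeq2 also called 0, and at an unadjusted p under 0.05 edgeR gave 1, Pank3. Pank3 was also the one member that passed at an adjusted p under 0.05 alone (13.9% of all genes) and whose libraries did not overlap between genotypes (33.1%). The median log2 fold change was -0.101 over the members and 0.00567 over all genes. The difference between the genotype effects at 24 h and 3 h was tested as an interaction, which 2 members passed, Vnn3 and Pank3, against 9.53% of genes.

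**Figure D2:**
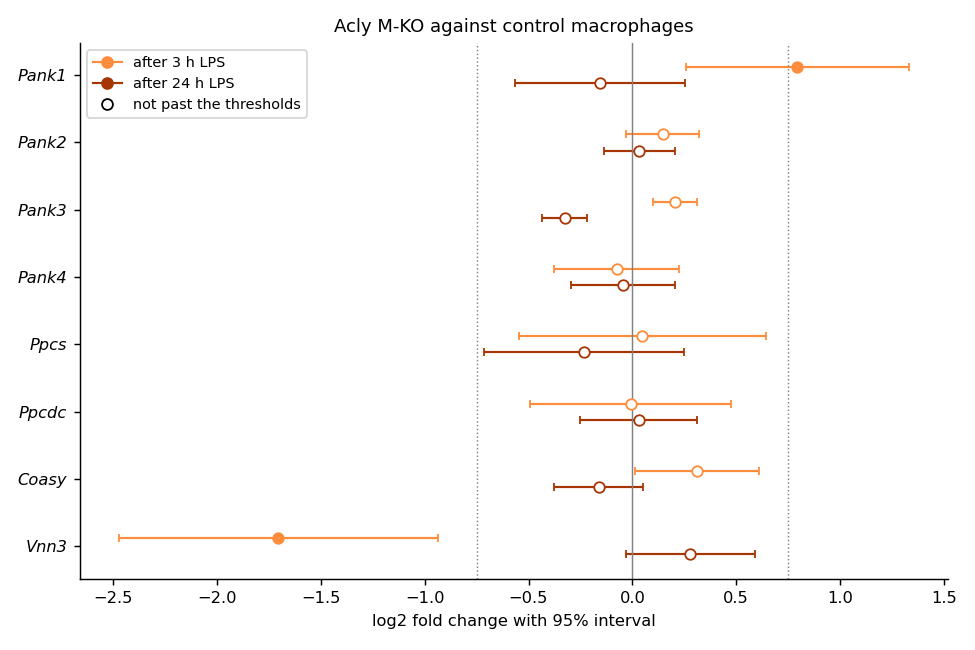
Log2 fold change of Acly M-KO against control macrophages for the 8 genes after 3 h (light) and 24 h (dark) LPS, with 95% intervals. Filled points passed both thresholds, dotted lines mark 0.75 in either direction. Vnn3 lies far to the left at 3 h (-1.70) and to the right of 0 at 24 h (0.28), and Pank3 lies on opposite sides of 0 at the 2 times.

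The second question was how the genes differed between 24 h and 3 h of LPS within each genotype. In control cells 4 of the 8 members had changed, Pank1, Ppcdc, Coasy and Vnn3, where 40.4% of all genes tested had. All 4 were higher at 24 h, against 20.9% of genes higher. In Acly M-KO cells 4 had changed, where 41.9% of genes had: Ppcdc, Coasy and Vnn3 were higher, as were 21.9% of genes, and Pank3 lower, as were 20%. At an adjusted p under 0.05 alone the counts were 7 and 6 of 8, against 74.9% and 75.7% of genes. The libraries of the 2 times did not overlap for 7 members in control cells and 6 in Acly M-KO cells, against 77.5% and 76.8% of genes. With both directions counted together, the member counts over time were near the share of all genes, whereas the shares called higher (4 and 3 of 8) were above the 20.9% and 21.9% of all genes. The members were chosen with earlier results of these data known, so this excess is no test of the set. The median log2 fold change over the members was 0.859 in control and 0.416 in Acly M-KO cells, and 0.0428 and 0.0443 over all genes. The genotype and time comparisons share libraries with each other.

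**Figure D3:**
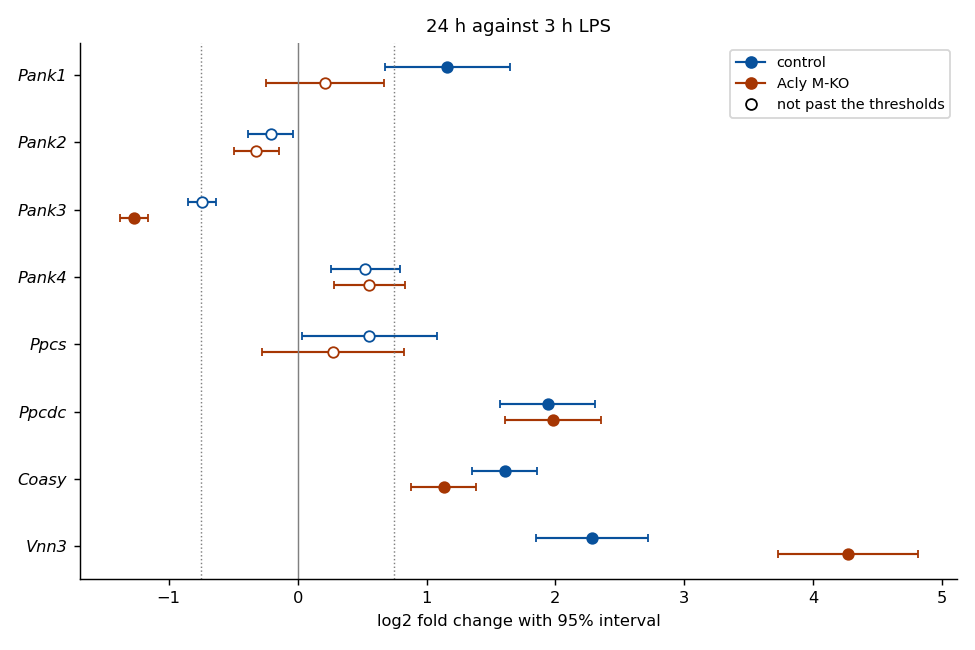
Log2 fold change of 24 h against 3 h LPS for the 8 genes in control (blue) and Acly M-KO (brown) macrophages, with 95% intervals, filled where both thresholds were passed. Ppcdc, Coasy and Vnn3 lie to the right in both genotypes, Pank3 to the left, and the genotypes lie farthest apart for Vnn3 (2.29 and 4.27).

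These time values rest on the scaling between libraries. With library totals alone in place of edgeR's TMM factors, a choice made after seeing the data, the median log2 fold change over all transcripts moved from 0.0337 to 0.308 in control and from 0.0326 to 0.276 in Acly M-KO cells. Genes called higher went from 20.9% to 30.6% of those tested in control and from 21.9% to 30.1% in Acly M-KO cells, or from 51.7% and 52.3% to 68.3% and 66.4% of all calls. The Pank2 value in control cells then turned from -0.21 to 0.07, Pank4 passed the fold threshold (0.80 in both genotypes) and Ppcs did so in control cells (0.83). The members called were then 6 in control and 5 in Acly M-KO cells. The fall of Pank3 in Acly M-KO cells and the rises of Ppcdc, Coasy and Vnn3 in both genotypes kept their direction and stayed past the thresholds. The summed neutrophil and dendritic cell markers were also lower at 24 h than at 3 h, the summed fibroblast markers were higher (0 to 0.347 against 0.615 to 1.19 CPM in control, 0.0961 to 0.656 against 0.764 to 1.43 CPM in Acly M-KO cells), and Lyz2, the locus that carries Cre in Acly M-KO cells, went from 5240 to 2440 CPM in control cells and from 2670 to 920 CPM in Acly M-KO cells. The part of these shifts in the members' values was not tested.

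**Figure D4:**
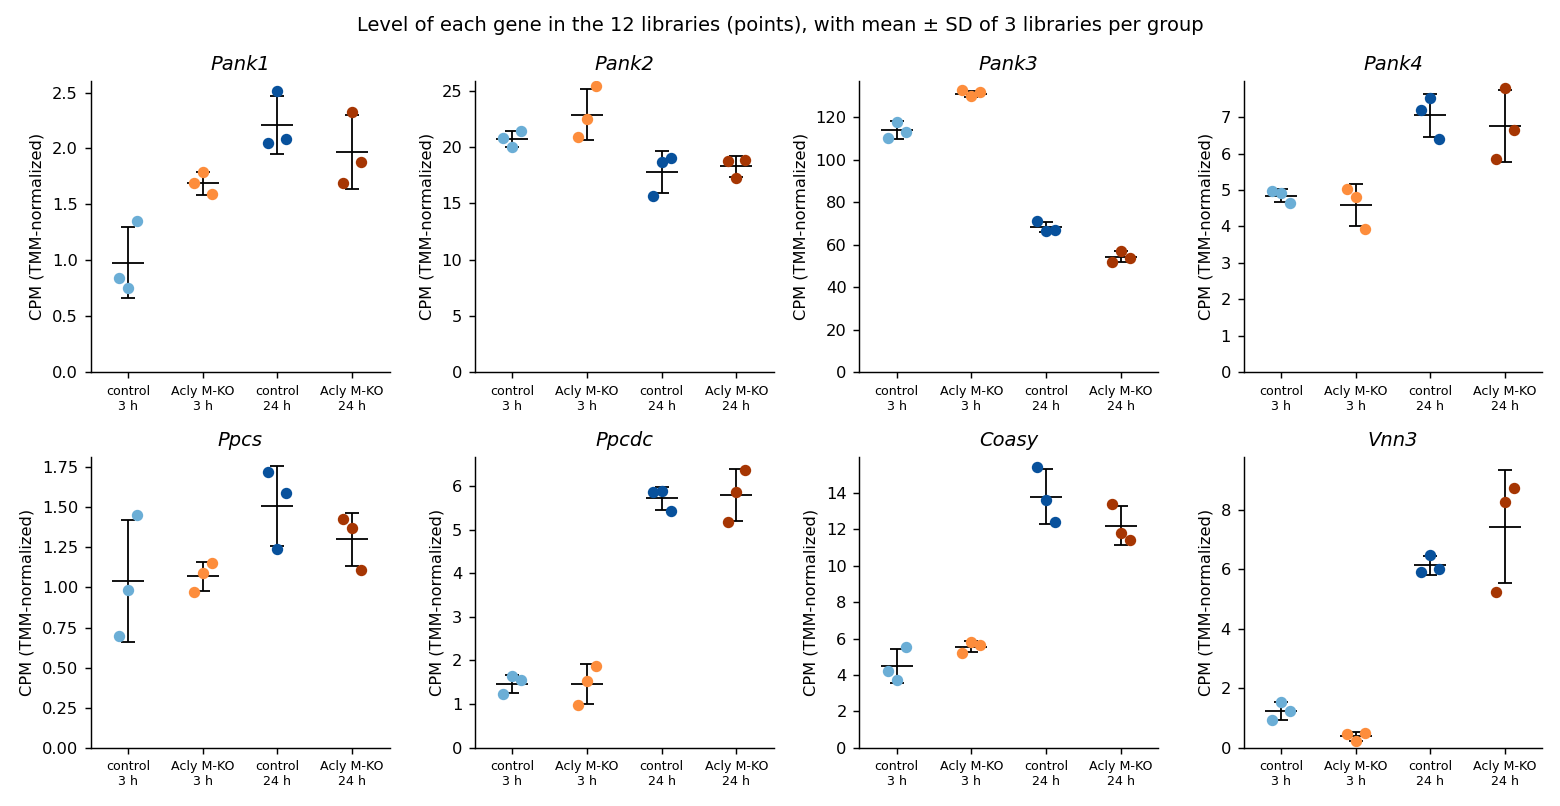
CPM of each of the 8 genes in the 12 libraries (points) by group, with the group mean and SD of 3 libraries (black), on axes that start at 0. The 24 h libraries lie above all 3 h libraries for Pank4, Ppcdc, Coasy and Vnn3 and below them for Pank2 and Pank3.

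Pank1 (chr19:34806940-34879455, minus strand, GRCm38) encodes a pantothenate kinase that is prominent in liver. It had 17, 16 and 27 counts in control libraries at 3 h, or 0.844, 0.748 and 1.35 CPM, and 33, 41 and 33 counts in Acly M-KO libraries, or 1.69, 1.79 and 1.59 CPM. Every Acly M-KO library was above every control library at 3 h. The fitted difference was 1.73-fold (log2 0.79 ± 0.262 SE, adjusted p = 0.0381), just beyond both thresholds. The call did not hold across fits: in 5 of 6 fits that left out 1 library it no longer passed both thresholds, and it passed only without control replicate 3 (log2 1.09, adjusted p = 0.0166). It was also not called by DESeq2 (0.80, adjusted p = 0.0576) or in a fit of the 3 h libraries alone (0.79, adjusted p = 0.0732). At 24 h Pank1 was at 2.05, 2.51 and 2.08 CPM in control cells and at 1.69, 2.33 and 1.88 CPM in Acly M-KO cells, and these groups overlapped (log2 -0.16, 95% interval -0.566 to 0.252, adjusted p = 0.664). The interaction was -0.95 on the log2 scale and did not pass (adjusted p = 0.0648), but leaving out control 3 h replicate 3 (-1.25, adjusted p = 0.0282) or Acly M-KO 24 h replicate 2 (-1.08, adjusted p = 0.0495) took it past the threshold. Between 3 h and 24 h Pank1 rose 2.24-fold in control cells (log2 1.16, adjusted p = 6.54e-05). In Acly M-KO cells the same comparison gave 1.16-fold (log2 0.21, 95% interval -0.242 to 0.669, adjusted p = 0.387).

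Pank2 (chr2:131262495-131299188, plus strand), the kinase whose human counterpart is mutated in a neurodegeneration with brain iron accumulation, was nearly level. It was at 20.8, 20 and 21.4 CPM in control and 20.9, 22.5 and 25.4 CPM in Acly M-KO cells at 3 h. At 24 h it was at 15.7, 18.7 and 19 CPM in control and 18.8, 17.3 and 18.9 CPM in Acly M-KO cells. The genotypes overlapped at both times, with log2 differences of 0.15 (95% interval -0.0303 to 0.321, adjusted p = 0.286) and 0.03 (-0.138 to 0.204, adjusted p = 0.845). All 24 h libraries were below all 3 h libraries of the same genotype, by log2 -0.21 in control (adjusted p = 0.0266) and -0.32 in Acly M-KO cells (adjusted p = 0.00114), both under the fold threshold. The control value lost its adjusted p in 3 of 6 fits without 1 library (0.172 without 24 h replicate 2, 0.0702 without 3 h replicate 1 and 0.1 without 3 h replicate 3). With library totals alone the Acly M-KO value was -0.08 (adjusted p = 0.404). The 3′ part of Pank2 overlaps Rnf24 on the other strand and Gm14233 on its own, and the strand setting of the counting is not given in the sources used here, so reads from these genes could not be told apart.

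Pank3 (chr11:35769484-35791285, plus strand), a cytosolic kinase, had the most counts of the members and genotype differences of opposite sign at the 2 times. At 3 h it was at 110, 118 and 113 CPM in control and at 133, 130 and 132 CPM in Acly M-KO cells. At 24 h it was at 71, 66.6 and 67.1 CPM in control and at 52, 57.2 and 53.9 CPM in Acly M-KO cells. The libraries of the 4 groups did not overlap anywhere: Acly M-KO cells were highest at 3 h and lowest at 24 h. The genotype difference was 1.15-fold upward at 3 h (log2 0.20 ± 0.0522 SE, adjusted p = 0.0072) and 1.25-fold downward at 24 h (log2 -0.33 ± 0.0538 SE, adjusted p = 6.21e-05), both small and under the fold threshold. The difference between them was -0.53 on the log2 scale (± 0.075 SE, 95% interval -0.684 to -0.377, adjusted p = 1.55e-05), and it passed in all 12 fits that left out 1 library (-0.57 to -0.50). Over time Pank3 fell 2.41-fold in Acly M-KO cells (log2 -1.27, adjusted p = 1.8e-19). In control cells it was 1.67-fold lower (log2 -0.74, adjusted p = 8.83e-14), just short of the fold threshold, which it passed with RLE size factors (-0.77), with DESeq2 (-0.76) and in 2 of 6 fits without 1 library. With library totals alone it was farther from it (-0.47, adjusted p = 2.55e-09).

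Pank4 (chr4:154964123-154980938, plus strand), the member without kinase activity, had 3 transcript rows with identical counts. Its means were 4.84 ± 0.176 CPM (SD, n = 3) in control and 4.59 ± 0.571 CPM in Acly M-KO cells at 3 h, and 7.05 ± 0.582 and 6.76 ± 0.978 CPM at 24 h. The genotypes overlapped at both times, with 95% intervals of the log2 difference of -0.377 to 0.224 at 3 h and -0.294 to 0.203 at 24 h. All 24 h libraries were above all 3 h libraries of the same genotype, by 1.44-fold in control (log2 0.53, adjusted p = 0.000699) and 1.47-fold in Acly M-KO cells (log2 0.56, adjusted p = 0.000515), under the fold threshold.

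Ppcs (chr4:119418530-119422420, minus strand), the ligase that joins phosphopantothenate and cysteine, had 14 to 104 counts per library. At 3 h it was at 0.695, 0.982 and 1.45 CPM in control and 0.973, 1.09 and 1.15 CPM in Acly M-KO cells, and at 24 h at 1.72, 1.24 and 1.59 against 1.43, 1.37 and 1.11 CPM. The groups overlapped in both genotype comparisons, and the intervals were wide (log2 -0.547 to 0.644 at 3 h and -0.712 to 0.247 at 24 h). The nearest to a change was between the times in control cells (log2 0.56, adjusted p = 0.0506). Whether it passed turned on single libraries: without control 3 h replicate 3 it was 0.87 (adjusted p = 0.0105), past both thresholds, and without control 3 h replicate 1 it was 0.35 (adjusted p = 0.26).

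Ppcdc (chr9:57385095-57440124, minus strand), the decarboxylase of the next step, had 25, 35 and 31 counts (1.24, 1.64 and 1.55 CPM) in control and 19, 35 and 39 counts (0.973, 1.53 and 1.87 CPM) in Acly M-KO cells at 3 h. At 24 h it was at 5.86, 5.88 and 5.42 CPM in control and 5.18, 5.87 and 6.37 CPM in Acly M-KO cells. Every 24 h library was thus above every 3 h library, while the genotypes overlapped at both times. The rise was 3.84-fold in control (log2 1.94 ± 0.18 SE, adjusted p = 4.15e-11) and 3.94-fold in Acly M-KO cells (log2 1.98 ± 0.182 SE, adjusted p = 3.41e-11). The genotype difference was -0.01 on the log2 scale at 3 h (95% interval -0.491 to 0.475) and 0.03 at 24 h (-0.252 to 0.313), and the interaction was 0.04 (-0.522 to 0.598, adjusted p = 0.959).

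Coasy (chr11:101082565-101086619, plus strand), the enzyme of the last steps, was at 4.22, 3.74 and 5.53 CPM in control and 5.22, 5.81 and 5.62 CPM in Acly M-KO cells at 3 h. At 24 h it was at 15.4, 13.6 and 12.4 CPM in control and 13.4, 11.8 and 11.4 CPM in Acly M-KO cells. The 24 h libraries were all above the 3 h libraries, and the genotypes overlapped at both times. Coasy rose 3.04-fold in control (log2 1.61 ± 0.125 SE, adjusted p = 6.69e-13) and 2.19-fold in Acly M-KO cells (log2 1.13 ± 0.123 SE, adjusted p = 1.14e-09). The rises differed by -0.47 on the log2 scale, which did not pass the test (95% interval -0.839 to -0.107, adjusted p = 0.0955) except in the fit without control 3 h replicate 3 (-0.66, adjusted p = 0.0279). By genotype the log2 difference was 0.31 at 3 h (adjusted p = 0.161) and -0.16 at 24 h (adjusted p = 0.334). At 3 h it was 0.49 without control replicate 3, where it passed on adjusted p (0.0462) but not on fold, and 0.19 without control replicate 2 (adjusted p = 0.49).

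Vnn3 (chr10:23851462-23869843, plus strand), the pantetheinase whose upstream window is printed above, is 1 of 2 vanins examined. The other, Vnn1, best known from kidney and gut, had 0 to 2 counts in each library and was not tested. Vnn3 had 19, 33 and 25 counts in control libraries at 3 h, or 0.943, 1.54 and 1.25 CPM. In Acly M-KO libraries at 3 h it had 9, 5 and 10 counts, or 0.461, 0.219 and 0.481 CPM. All 3 Acly M-KO libraries were below all control libraries. The level was 3.26-fold lower in Acly M-KO cells at 3 h (log2 -1.70 ± 0.376 SE, 95% interval -2.47 to -0.934, adjusted p = 0.00219), and 14 of the 11904 genes tested fell more. The call passed in all 6 fits without 1 library (-1.90 to -1.39), and with DESeq2 and every other setting in which the gene was tested (adjusted p from 1.8e-05 to 0.00717). A filter of at least 10 counts in every library removed it.

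At 24 h Vnn3 was at 5.9, 6.48 and 6 CPM in control cells, from 144, 152 and 393 counts, and at 5.25, 8.28 and 8.75 CPM in Acly M-KO cells, from 140, 206 and 228 counts. The groups overlapped, since Acly M-KO replicate 1 was below all control libraries and the other 2 above them (log2 0.28, 95% interval -0.0324 to 0.591, adjusted p = 0.247). Without Acly M-KO replicate 1 the difference was 0.48, which passed on adjusted p (0.0313) but not on fold, and without replicate 3 it was 0.14 (adjusted p = 0.683). The genotype effect differed between the times by 1.98 on the log2 scale (± 0.406 SE, 95% interval 1.15 to 2.81, adjusted p = 0.00175), and 25 of the 11904 genes had a larger positive interaction. Vnn3 rose 4.87-fold between 3 h and 24 h in control cells (log2 2.29 ± 0.211 SE, adjusted p = 8.25e-11) and 19.3-fold in Acly M-KO cells (log2 4.27 ± 0.265 SE, adjusted p = 1.14e-14), from the lower start. In Acly M-KO cells 44 genes rose more. At 3 h, where Vnn3 was lower in Acly M-KO cells, the summed neutrophil markers overlapped between genotypes (12.6 to 14.3 CPM in control, 11.8 to 15.3 CPM in Acly M-KO cells), and the summed dendritic cell markers were higher in Acly M-KO cells (1.54 to 1.78 against 1.89 to 2.69 CPM). Over time, as Vnn3 rose, both of these sums went down and the summed fibroblast markers went up. Their part in the Vnn3 values was not tested.

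The genes whose log2 CPM over the 12 libraries was most like that of Vnn3 were Ctsh (Pearson r = 0.987), Bccip (0.986) and Sdc1 (0.986). Ctsh, a lysosomal cysteine protease, had mean log2 CPM of 7.19 in control and 6.6 in Acly M-KO cells at 3 h and 8.11 and 8.17 at 24 h, and Sdc1, the proteoglycan syndecan-1, had 3.8, 3.47, 4.72 and 4.78 in the same order. Both were thus lower in Acly M-KO cells at 3 h and near control at 24 h. Among the synthesis genes Ppcdc had the widest range of group means, 1.98 on the log2 scale, and was most like Map3k14, the NF-kB-inducing kinase (0.994), Zfp512 (0.991) and 1700071M16Rik (0.991). These correlations describe 4 groups of libraries that share their treatment, and carry no test.

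Around the pathway, 13 genes for the transport, salvage and turnover of coenzyme A and its precursors were examined, and 11 had enough counts to test. By genotype 0 of 11 had changed at 3 h (2.01% of all genes) and 0 at 24 h (1.38%), and 0 passed the interaction (9.53%) by edgeR. DESeq2 called 0 in each case, and at an unadjusted p under 0.05 edgeR gave 1, 3 and 1. At 24 h the libraries of 5 of the 11, Slc25a42, Nudt7, Aasdhppt, Nudt19 and Slc25a16, did not overlap between genotypes, against 33.1% of all genes in either direction. All 5 were lower in Acly M-KO cells, and no share of all genes is given for that direction alone. At 3 h the libraries of 2 of the 11, Ado and Dcakd, did not overlap, against 30.1% of all genes in either direction. Both were higher in Acly M-KO cells. The list's median log2 difference by genotype was 0.0213 at 3 h and -0.176 at 24 h, beside -0.00511 and 0.00567 over all genes. Over time 6 of 11 had changed in both genotypes, where 40.4% of all genes had in control and 41.9% in Acly M-KO cells. Slc5a6, the transporter that brings pantothenate and biotin into cells, rose by log2 1.03 ± 0.28 in control and 1.25 ± 0.292 in Acly M-KO cells (adjusted p = 0.00144 and 0.000324). Slc25a42 and Slc25a16, mitochondrial carriers linked to coenzyme A, rose by 1.75 and 1.14 in control and 1.71 and 0.94 in Acly M-KO cells. Slc25a42 had only 7, 3 and 3 counts in control and 0, 5 and 4 in Acly M-KO libraries at 3 h. Its rises, counted among the 6, are therefore uncertain (SE 0.481 and 0.58). It passed the filter on low counts only through its 24 h libraries, so its place among the 6 was partly fixed by the filter. The peroxisomal coenzyme A hydrolase Nudt7 rose by 1.02 and 0.90. Enpp1, an ectoenzyme that cleaves nucleotide pyrophosphates including extracellular coenzyme A, differed by -1.88 and -1.89, and the peroxisomal carrier Slc25a17 by -0.95 and -1.03. The median over the list was 0.4 in control and 0.106 in Acly M-KO cells, beside 0.0428 and 0.0443 over all genes.

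Acyl-CoA thioesterases, which release free coenzyme A from acyl-CoA, could be tested for 8 of 14 genes. None of the 8 had changed by genotype at 3 h or 24 h (edgeR 0 and 0, DESeq2 0 and 0, unadjusted p under 0.05 in 2 and 0), where 2.01% and 1.38% of all genes had. The 2 at 3 h, Acot11 (log2 0.53, adjusted p = 0.00689) and Acot7 (0.29, adjusted p = 0.00864), passed on adjusted p but not on fold, where 15.4% of all genes passed on adjusted p. The libraries of Acot7, Acot9 and Acot11 did not overlap between genotypes at 3 h, all 3 being higher in Acly M-KO cells, against 30.1% of all genes in either direction. Acot7, a cytosolic enzyme for long-chain acyl-CoA, was the 1 of 8 that passed the interaction (-0.40, adjusted p = 0.0163), as did 9.53% of all genes. It was at 20.7, 20.6 and 20.7 CPM in control against 23.8, 25.9 and 26 CPM in Acly M-KO cells at 3 h. At 24 h it was at 16.5, 15.5 and 15.6 against 14.3, 15.8 and 13.8 CPM. Only at 3 h were its genotypes apart. Over time 5 of 8 had changed in each genotype, beside the same 40.4% and 41.9% of all genes. Acot9 was lower in both (-1.10 and -1.11), and Them4 (1.37 and 1.85) and Acot2 (1.29 and 1.00) were higher in both. Acot6, counted among the 5 in each genotype, had 0 to 2 counts in each library at 3 h and 12 to 25 at 24 h. It passed the filter on low counts only through its 24 h libraries, so its place among the 5 was partly fixed by the filter. Acot8 was called in control cells (0.81) and reached 0.69 in Acly M-KO cells, where it was under the fold threshold, with an interaction that did not pass (-0.12, adjusted p = 0.775). Acot7 was called in Acly M-KO cells (-0.79).

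**Figure D5:**
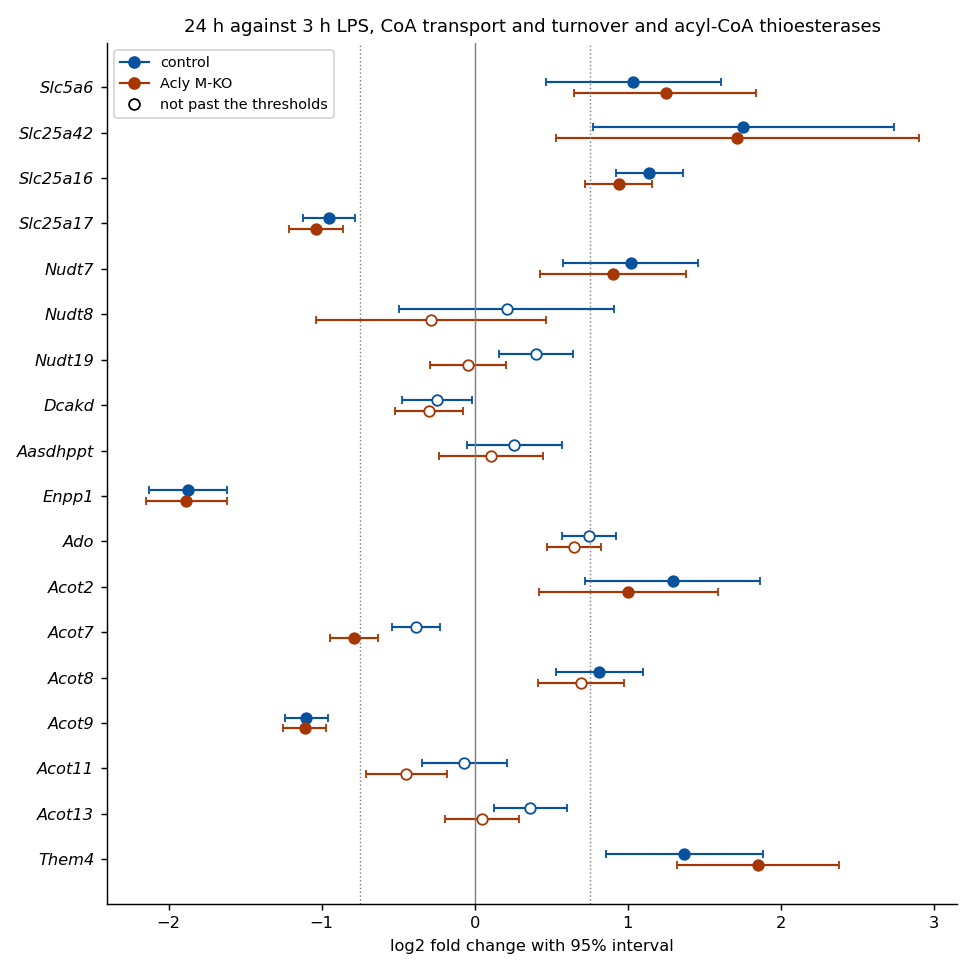
Log2 fold change of 24 h against 3 h LPS with 95% intervals for the tested genes of coenzyme A transport, salvage and turnover (upper rows) and the acyl-CoA thioesterases (lower rows) in control (blue) and Acly M-KO (brown) macrophages. Filled points passed both thresholds, and Acot6 is left out because of its low counts at 3 h. Slc25a42, Them4 and Acot2 lie to the right and Enpp1 (-1.88 and -1.89) farthest to the left in both genotypes. Slc25a42 had 0 to 7 counts in each library at 3 h.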

How the data were processed

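The series measured gene expression by RNA-seq in 13 macrophage libraries. Per the labels and the study's methods, libraries were made with a strand-specific mRNA kit and sequenced on an Illumina HiSeq, and the authors aligned reads to mm10 with STAR (2.5.2b) and deposited raw HOMER tag counts per RefSeq transcript, with CASAVA (1.8.2) also named in the submitters' processing notes. The strand setting of the counting is not given in the sources used here. The study itself used DESeq2. Of 35745 transcripts, 35440 got a symbol from the RefSeq gene table and 35628 after GENCODE was added. The 117 without one held 1.13% of counts. All columns were used.

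Counts were fitted with edgeR 4.0.16 (R 4.3.3, limma 3.58.1): TMM factors, filterByExpr over the 4 groups (19621 transcripts of 11904 genes), and robust quasi-likelihood tests with Benjamini-Hochberg adjustment over all transcripts, in 1 fit of 12 libraries. The code was tested on simulated data. CPM are TMM-normalized, transcript lengths come from the GENCODE mouse annotation, and log2 CPM used a prior count of 2. Over all groups, same-numbered libraries did not deviate together beyond the others (r from -0.0305 to 0.0583 over 15 pairs, against -0.0645 to 0.0742 over 39). Between the 2 times of Acly M-KO cells, however, same-numbered pairs were at 0.0578, 0.0382 and 0.0404, and the other pairs from -0.0334 to -0.00488. The highest r, 0.0742, joined control 24 h replicate 4 with control 3 h replicate 1. The order of the column numbers would match these 2 libraries, and control replicates 2 and 3 with their own numbers. Those same-numbered control pairs were at -0.00531 and 0.0177, and no label states a pairing. The main fit took no account of pairing, so its time and interaction p-values treat the libraries as independent. A fit with the libraries matched in this way was not run. No libraries were duplicates.

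Members and lists were chosen with earlier results of these data known. The genes named are all members, Acly, genes overlapping a member, and the 3 genes most like Vnn3 and like the synthesis gene of widest range. List genes that changed in any comparison are named too. List genes that passed on adjusted p by genotype, or whose libraries did not overlap between genotypes, were named after their values were seen. Alternatives were RLE factors, DESeq2 1.42.0, all 13 libraries, other filters, 1 transcript per gene, other transcripts, other thresholds, a replicate block, leaving out each library and, chosen after seeing the data, library totals alone. Intervals cover 95%.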

Additional observations from a re-analysis of the deposited data

Results flagged for a closer look

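Among the 4 control libraries at 24 h, replicate 1, with 34467 counts, lay far from the others. A Dixon test of 9 genes gave ratios of its gap to the whole range above the critical value for 7: Pank1 (0.983), Pank3 (0.944), Coasy (0.934), Acly (0.929), Ppcdc (0.922), Vnn3 (0.91) and Pank4 (0.85). Chance flags about 1 group in 20. In that library 1 count is worth 29 CPM, so that a gene with 0 or 1 count falls to 0 or to 29. With this library kept, 13 libraries in all, the number of members called was 2 at 3 h, 0 at 24 h, 2 for the interaction and 4 over time in each genotype, as without it.

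The genotype effect differed between 24 h and 3 h for 2 members, by -0.53 for Pank3 and by 1.98 for Vnn3 on the log2 scale. Pank3 was higher in Acly M-KO cells at 3 h and lower at 24 h. Vnn3 was lower at 3 h, and at 24 h its groups overlapped.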

How the results depend on the processing

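The number of members changed at 3 h fell from 2 to 1, by the loss of Pank1, with DESeq2, with only the libraries compared in the fit, and in 5 of 6 fits without 1 library (range 1 to 2). It fell to 1, with Vnn3 untested, when 10 counts were asked of every library, and to 1 with a log2 threshold of 1. At 24 h it went from 0 to 1, Pank3, on adjusted p alone, and stayed at 0 without any 1 library. The interaction count went from 2 to 1 with 10 counts in every library, and ranged from 2 to 4 without 1 library. The 4 was reached without control 3 h replicate 3, when Pank1 and Coasy also passed. In control cells over time the count went from 4 to 7 on adjusted p alone. The other settings left these counts within 1.5 times the reported ones.

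The values that changed sign were near 0 and passed no threshold, apart from Pank2 in control cells over time, which was 0.06552 with library totals alone. With those totals Ppcdc at 3 h was 0.003545 and the Pank4 interaction -8.825e-05. With a replicate block the Pank4 interaction was -0.03677, no other value changed sign and no member count changed. That block went by replicate number. Over all groups, same-numbered libraries did not deviate together beyond the others. Between the times of Acly M-KO cells, however, same-numbered pairs were at r = 0.0578, 0.0382 and 0.0404. The highest r, 0.0742, joined control 24 h replicate 4 with control 3 h replicate 1, whose numbers differ. The block therefore cannot show whether pairing of the control libraries matters. Without 1 library each, Pank4 ranged from -0.1376 to 0.02058 at 3 h, from -0.1594 to 0.04939 at 24 h and from -0.08237 to 0.1262 in the interaction. Ppcdc ranged from -0.2177 to 0.2014, from -0.04379 to 0.1081 and from -0.1802 to 0.2475. Ppcs at 3 h ranged from -0.1638 to 0.3538 and Pank2 at 24 h from -0.04341 to 0.09163. Depth limits Pank1, Ppcs, Ppcdc and Vnn3 most, which had 5 to 41 counts per library at 3 h.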
